A study of Mus musculus with 6 samples.

Results

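The progesterone receptor gene and 8 related genes were followed in mouse cumulus cells, the somatic cells that surround the oocyte, before and after the ovulatory stimulus. The 9 members were chosen by name as steroid receptors, progesterone-binding membrane proteins, receptor chaperones and factors linked to the progesterone receptor, and every probe set that carries 1 of these gene symbols was taken. The choice was made with earlier results of these data known. The members hold 24 of the 45101 probe sets on the arrays, and 9 of the 18194 genes tested.

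The samples came from wild-type female mice that were given 5 IU of equine chorionic gonadotropin (eCG, which drives follicle growth) at 21 days of age, for 46 h. The hCG-0h group (3 samples) then received no human chorionic gonadotropin (hCG, the ovulatory hormone), and the hCG-6h group (3 samples) received 5 IU of hCG for 6 h. For each sample, cumulus cells were pooled from 50 complexes of oocyte and cumulus and read on 1 single-colour array. The medium held milrinone, an inhibitor of an oocyte phosphodiesterase, and 1 protocol speaks of cumulus cells where another speaks of whole complexes. The labels describe hCG-6h samples 2 and 3 as taken at 7 h and 8 h in 1 field and at 6 h in the others. They do not say whether samples came from separate animals, so p-values measure the spread between these samples, which may be technical. No group was kept without hCG for the added time, so hCG and elapsed time cannot be told apart. Over the genes tested, each read on its brightest probe set, arrays of the same group correlated at 0.986 to 0.988. Arrays of different groups correlated at 0.942 to 0.943.

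The progesterone receptor (PGR) is a nuclear receptor that ovarian follicle cells make for a short time after the ovulatory surge, and mice that lack it do not ovulate. The glucocorticoid receptor (encoded by Nr3c1) and the mineralocorticoid receptor (Nr3c2) belong to the same subfamily. All are held ready for hormone by heat shock protein chaperones, joined by the immunophilins FKBP52 (Fkbp4), which favours receptor activity, and FKBP51 (Fkbp5), which dampens it and is itself a target of steroid receptors in many tissues. Pgrmc1 and Pgrmc2 encode small haem-binding membrane proteins linked to progesterone responses outside the nucleus. Zbtb16 encodes the zinc finger repressor PLZF, induced by progestins and glucocorticoids in several tissues, and Cited2 encodes a partner of the CBP and p300 coactivators.

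Of the 9 members, 2 rose (Pgr and Cited2), 1 fell (Fkbp5) and 6 did not pass in the test with the brightest probe set of each gene (limma, Benjamini-Hochberg adjusted p under 0.05 over all genes). Over all 18194 genes, 10.8% were higher and 10.5% lower, together 21.3%, beside 3 of 9 members, and nothing particular to the members is read from so few genes. The groups did not overlap in 4 of the 9 members, against 37.9% of all genes. The median log2 change was 0.16 over the 9 members and 0.0067 over all genes. Each of the 24 probe sets was also tested on its own against all 34958 probe sets with a single symbol. In that test 7 member probe sets were higher and 2 lower, belonging to 6 of the 9 genes, whereas 9.28% of all probe sets were higher and 9.43% lower (18.7% together). The groups did not overlap in 13 of the 24, against 36.3% of all probe sets. Leaving out each sample in turn left 2 members higher, or 3 without hCG-6h sample 1, when Zbtb16 joined them. The single fall was kept only without hCG-0h sample 3.

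**Figure D1:**
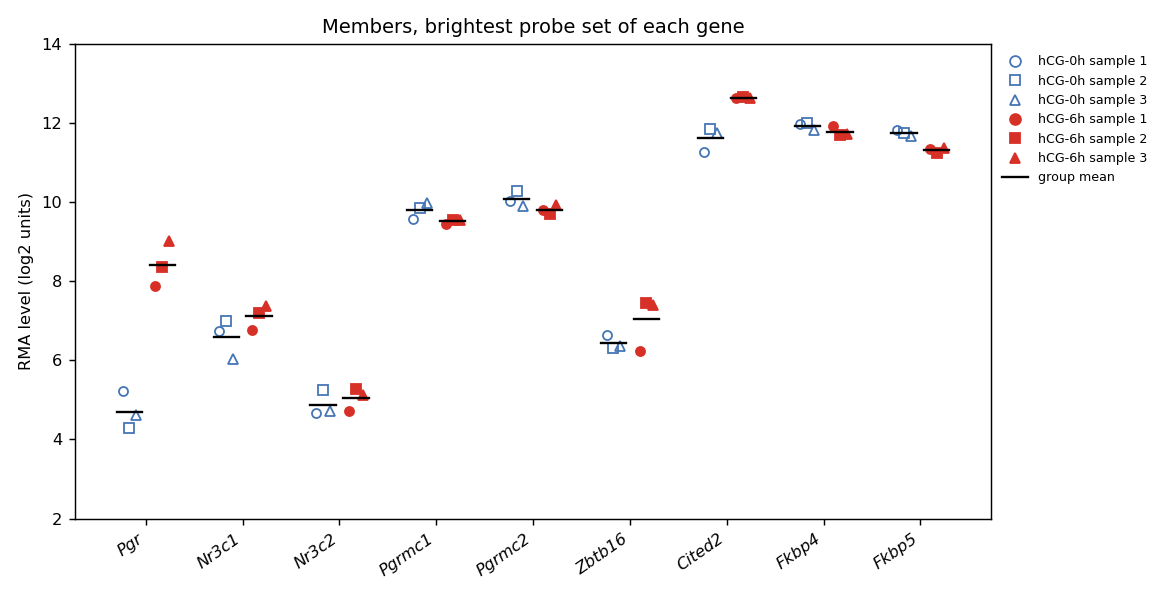
RMA level (log2 units, vertical axis) of the 9 members in each of the 6 samples, with the brightest probe set of each gene; open blue symbols are hCG-0h samples, filled red symbols hCG-6h samples, and black bars group means. The 3 hCG-6h values of Pgr (7.88 to 9.02) lie above its hCG-0h values (4.29 to 5.22), Cited2 moved from 11.62 to 12.64 on average, and Fkbp5 from 11.75 to 11.32.

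Pgr, the receptor itself, showed the largest change of the 9. Its brightest probe set (1439527_at) read 5.22, 4.29 and 4.61 in hCG-0h samples 1, 2 and 3 and 7.88, 8.36 and 9.02 in hCG-6h samples 1, 2 and 3 (log2 units). Every hCG-6h sample was above every hCG-0h sample, with a gap of 2.66 between the nearest values. The mean went from 4.71 ± 0.47 to 8.42 ± 0.57 (SD, n = 3 each), a 13.1-fold rise (log2 change 3.71 ± 0.34, SE, limma adjusted p = 0.000527), the 72nd largest rise among the genes tested.

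A second Pgr probe set (1421444_at) gave nearly the same change. It read 3.63, 4.49 and 4.28 at hCG-0h and 7.76, 8.76 and 7.54 at hCG-6h, a 14.8-fold rise (log2 change 3.89 ± 0.37, SE, limma adjusted p = 0.00078 over all probe sets). The order of the 3 hCG-6h samples differed between these 2 probe sets, with sample 3 highest in the first and lowest in the second. The third Pgr probe set (1455772_at) stayed dim, at 3.94, 3.84 and 3.85 and then 4.02, 4.22 and 3.96, and did not pass (log2 change 0.19, 95% interval -0.09 to 0.47, adjusted p = 0.326). Averaging the 3 probe sets therefore lowered the log2 change of Pgr to 2.60. At hCG-0h the 3 probe sets all lay below 6.08, the level that bounds the dimmest of 3 equal parts of the genes, where RMA compresses differences. No detection calls were used, so it is not known whether Pgr was above background at hCG-0h, and both folds are ratios of RMA values only.

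The stretch just upstream of the annotated start is shown for Pgr, Cited2 and Fkbp5, the 3 members called on their brightest probe set. Nr3c1, Pgrmc2 and Zbtb16 also had called probe sets, though not their brightest, and their stretches are not shown. The sequences are RefSeq's, build GRCm38.p6, 250 bases ending at the base before the start, 5′ to 3′ on the gene's strand; Pgr is chr9:8899583-8899832 (+ strand), Cited2 chr10:17722978-17723227 (+ strand) and Fkbp5 chr17:28486150-28486399 (- strand). Capitals mark matches, on either strand, to the GC box GGGCGG, the CCAAT box CCAAT, the TATA box TATAAA and the E-box CACGTG.
Pgr: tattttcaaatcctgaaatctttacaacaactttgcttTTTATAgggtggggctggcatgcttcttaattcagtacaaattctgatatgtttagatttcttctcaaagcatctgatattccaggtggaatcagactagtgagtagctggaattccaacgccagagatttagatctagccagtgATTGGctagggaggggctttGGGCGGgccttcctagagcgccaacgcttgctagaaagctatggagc
Cited2: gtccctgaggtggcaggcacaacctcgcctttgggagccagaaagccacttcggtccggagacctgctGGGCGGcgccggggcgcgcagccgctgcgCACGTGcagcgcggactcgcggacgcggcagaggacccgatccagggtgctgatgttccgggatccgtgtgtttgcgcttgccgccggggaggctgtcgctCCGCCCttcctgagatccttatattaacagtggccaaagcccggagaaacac
Fkbp5: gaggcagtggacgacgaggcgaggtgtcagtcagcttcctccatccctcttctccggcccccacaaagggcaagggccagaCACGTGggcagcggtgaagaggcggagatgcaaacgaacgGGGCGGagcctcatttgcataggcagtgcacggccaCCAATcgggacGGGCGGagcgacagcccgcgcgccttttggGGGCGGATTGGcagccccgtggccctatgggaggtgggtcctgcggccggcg
All 3 windows hold a GC box, as do 32.7% of 32851 promoter windows of the same length. Pgr and Fkbp5 hold a CCAAT box (33.8% of windows), Pgr a TATA box in reverse orientation (12.4%), and Cited2 and Fkbp5 an E-box (6.02%). In Fkbp5 the last GC box and a reverse CCAAT box stand side by side without overlap. The cyclic AMP response motif TGACGTCA (1.55% of windows), its shorter form TGACG (17.8%) and the steroid receptor hexamer AGAACA (16.1%) were searched on both strands as well, and these letters are not in the 3 windows. Among the other members with a window, Pgrmc1 holds TGACG and AGAACA, and Fkbp4 holds TGACG. The Pgr window was poorer in G and C (43.6%) than those of Cited2 (66.8%) and Fkbp5 (68.0%), with a median of 52.4% over all windows.

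Nr3c1, the glucocorticoid receptor gene, pointed upward on all 6 of its probe sets but passed on only 2. The brightest (1421867_at) read 6.75, 6.99 and 6.03 at hCG-0h and 6.77, 7.19 and 7.38 at hCG-6h. These groups overlapped, and the log2 change was 0.52 ± 0.28 (SE, limma adjusted p = 0.249 over all genes), so the gene is not counted as called. Probe set 1421866_at read 5.95, 5.56 and 5.87 and then 6.47, 6.51 and 6.19, without overlap (log2 change 0.60, limma adjusted p = 0.0396). Probe set 1457635_s_at read 5.67, 3.62 and 4.67 and then 6.65, 6.34 and 6.99. Its log2 change was 2.01 (limma adjusted p = 0.0332), with a wide 95% interval of 0.83 to 3.18. At hCG-0h the mean of every Nr3c1 probe set but the brightest lay below the dim limit of 6.08. RMA compresses differences there, so no fold is given for these probe sets.

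The other 3 Nr3c1 probe sets had log2 changes of 0.41, 0.52 and 0.74 and did not pass. Both calls were fragile: that of 1421866_at was kept only without hCG-6h sample 3 (adjusted p = 0.0453 without it, at most 0.116 without another sample), and that of 1457635_s_at was kept only without hCG-0h sample 1 or 2, with adjusted p up to 0.0998 otherwise. The mean of the 6 probe sets rose by 0.80 on the log2 scale and passed (limma adjusted p = 0.0113). The ending s_at marks probes that can match transcripts of more than 1 gene, which limits what 1457635_s_at says of Nr3c1 alone.

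Nr3c2, the mineralocorticoid receptor gene, has 1 probe set, which was dim in both groups. It read 4.66, 5.26 and 4.73 at hCG-0h and 4.73, 5.28 and 5.13 at hCG-6h, with overlap. Its log2 change was 0.16, with a 95% interval of -0.35 to 0.68 (probe set fit) and a limma adjusted p of 0.658 over all genes.

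Both membrane protein genes were bright, and every probe set of theirs had a change below 0. Pgrmc1 read 9.58, 9.84 and 9.97 at hCG-0h and 9.46, 9.54 and 9.55 at hCG-6h on its single probe set. The groups just failed to overlap, and the log2 change of -0.28 ± 0.13 (SE) did not pass (limma adjusted p = 0.182). The 2 probe sets of Pgrmc2 disagreed in size. The brighter (1428714_at) read 10.04, 10.27 and 9.9 and then 9.79, 9.71 and 9.92, with a log2 change of -0.26 that did not pass (adjusted p = 0.219).

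The second Pgrmc2 probe set (1452882_at) read 9.30, 8.92 and 9.19 at hCG-0h and 7.80, 8.46 and 8.18 at hCG-6h. Its groups did not overlap and it fell by 0.99 on the log2 scale, to a level 1.99-fold lower (SE 0.20, limma adjusted p = 0.0157). That call was lost without sample 1 or sample 3 of hCG-0h (adjusted p = 0.0533 and 0.0537). Averaged over both probe sets, Pgrmc2 fell by 0.63 on the log2 scale (adjusted p = 0.00707).

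**Figure D2:**
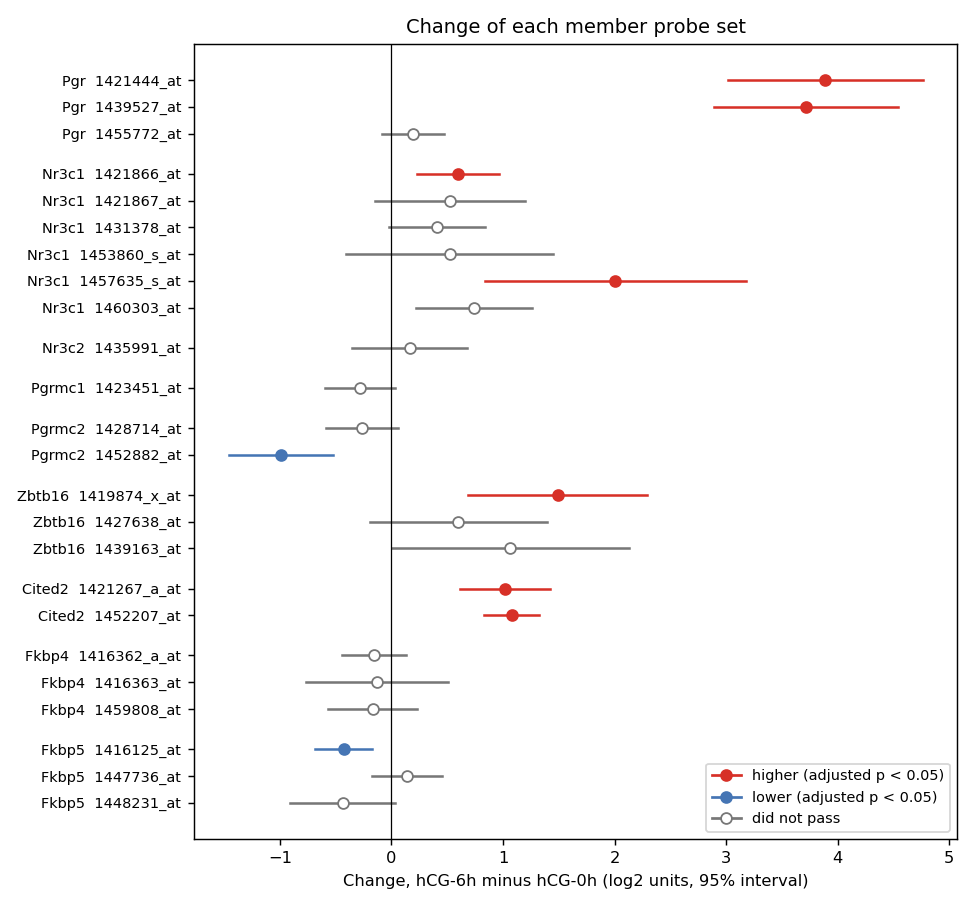
Change from hCG-0h to hCG-6h (log2 units, horizontal axis) of each of the 24 member probe sets, with 95% intervals from the fit over all probe sets; red marks probe sets that were higher, blue lower, and open grey circles those that did not pass. Of 3 Pgr probe sets 2 stand near 3.7 to 3.9, all 6 Nr3c1 probe sets lie to the right of 0, and the 3 Fkbp4 probe sets lie close to 0.

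Among the factors linked to PGR, Cited2 rose on both of its probe sets. Probe set 1421267_a_at read 11.27, 11.85 and 11.75 at hCG-0h and 12.64, 12.65 and 12.63 at hCG-6h. All hCG-6h values lay close together and above every hCG-0h value, and the change was a 2.02-fold rise (log2 change 1.02 ± 0.16, SE, limma adjusted p = 0.00578). Probe set 1452207_at gave 11.52, 11.62 and 11.46 and then 12.61, 12.64 and 12.58, a 2.11-fold rise (adjusted p = 0.000824). Both calls held when any 1 sample was left out, but with hCG-6h sample 1 as the only hCG-6h sample the gene was not called (adjusted p = 0.109).

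The 3 probe sets of Zbtb16 differed in the order of the hCG-6h samples, and on 2 of them every hCG-6h sample lay above every hCG-0h sample. The brightest (1427638_at) read 6.63, 6.31 and 6.37 at hCG-0h and 6.24, 7.46 and 7.41 at hCG-6h. Samples 2 and 3, those described as 7 h and 8 h, were above all hCG-0h samples, and sample 1 was below them. The log2 change of 0.60 ± 0.33 (SE) did not pass (limma adjusted p = 0.265), but it was 1.00 and passed without hCG-6h sample 1 (adjusted p = 0.0079).

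Probe set 1439163_at of Zbtb16 read 5.88, 5.10 and 5.97 and then 6.07, 7.67 and 6.40, with sample 2 highest, and did not pass (adjusted p = 0.16). Probe set 1419874_x_at instead had sample 1 highest at hCG-6h, with 7.16, 6.94 and 6.42 against 5.26, 4.79 and 6.00 at hCG-0h. Its log2 change was 1.49 (limma adjusted p = 0.0248), from a dim hCG-0h mean of 5.35, so no fold is given. The call was lost without sample 1 or 2 of either group (adjusted p between 0.0595 and 0.0766). The ending x_at marks probes that can match other sequences. The mean of the 3 probe sets rose by 1.05 on the log2 scale (adjusted p = 0.0273).

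The brightest probe sets of the 2 chaperone genes changed by less than those of Pgr and Cited2. Fkbp5 read 11.83, 11.74 and 11.67 at hCG-0h and 11.34, 11.24 and 11.38 at hCG-6h on its brightest probe set (1416125_at). The groups did not overlap, and Fkbp5 was 1.34-fold lower (log2 change -0.43 ± 0.10, SE, limma adjusted p = 0.0258). The call was lost without sample 1 or 2 of hCG-0h and without any 1 of the 3 hCG-6h samples (adjusted p between 0.0562 and 0.0843). A second probe set (1448231_at) had the same size of change, -0.44, with overlapping groups, and did not pass (adjusted p = 0.19), and the third (1447736_at) was dim, with a change of 0.14 (adjusted p = 0.543). With the mean of the 3 probe sets Fkbp5 was not called (log2 change -0.24, adjusted p = 0.194).

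Fkbp4 read 11.98, 12.01 and 11.82 at hCG-0h and 11.93, 11.69 and 11.73 at hCG-6h on its brightest probe set, and the groups overlapped. Its log2 change was -0.15 ± 0.11 (SE, limma adjusted p = 0.421), with a 95% interval of -0.44 to 0.13 in the probe set fit. The other Fkbp4 probe sets had changes of -0.13 and -0.17 and did not pass.

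Of 12 measured genes of the HSP90 machinery that carries these immunophilins, 0 passed the limma test, beside 21.3% of all genes. In the list 1 had an unadjusted p under 0.05. Their log2 changes ran from -0.37 to 0.37, with a median of -0.08. With a trend and robust variance 2 of them passed, and with the mean of probe sets 1. Of the 11 other FK506-binding protein genes measured, 1 fell (Fkbp3, a nuclear member, log2 change -0.56, adjusted p = 0.00975) and 1 rose (Fkbp11, a member of the secretory pathway, log2 change 0.41, adjusted p = 0.0499). These counts stand beside 10.5% of all genes lower and 10.8% higher. The Fkbp11 call was lost without any sample other than hCG-6h sample 1 (adjusted p up to 0.136). Of its 3 probe sets 0 passed in the test over all probe sets, and their log2 changes ran from -0.26 to 0.72. The median of the FK506-binding protein list was 0.10.

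Of 12 measured genes on a list of PGR-dependent ovulatory genes 8 rose, 2 fell and 2 did not pass. The list was chosen with earlier results of these data known, and a part of PGR in these changes was not tested. Over all genes 10.8% were higher and 10.5% lower. The list had a median log2 change of 2.11 against 0.0067 over all genes. Ereg, the EGF-like ligand epiregulin, read 4.30, 3.75 and 4.13 at hCG-0h and 10.99, 11.04 and 11.10 at hCG-6h. Its groups did not overlap, and it rose by 6.98 on the log2 scale (limma adjusted p = 9.92e-06). Snap25, a vesicle fusion protein, rose by 5.43, Cxcr4, a chemokine receptor, by 5.27 and Adcyap1, which encodes the peptide PACAP, by 4.54 on the log2 scale (adjusted p between 2.09e-05 and 0.000105). The hCG-0h means of these 4 genes were dim, at 4.06, 4.56, 6.00 and 4.40, so no fold is given for them. Prkg2, a cyclic GMP-dependent kinase, rose 12.4-fold with all 3 of its probe sets passing (log2 changes 1.14 to 4.65), and Il6 rose by 3.40 on the log2 scale from a dim mean of 2.98, close to the lowest values on the arrays (2.43 to 2.48).

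The 2 genes of that list that fell were Epas1, which encodes HIF-2 alpha, 4.04-fold lower (adjusted p = 0.000214), and Pparg, a lipid-sensing nuclear receptor, with a log2 change of -0.65 (adjusted p = 0.0138). Hif1a, a relative of Epas1, rose by 0.83 on the log2 scale (adjusted p = 0.00177). Adamts1, a matrix protease, rose by 0.50 (adjusted p = 0.026), a call kept only when hCG-0h sample 1 was the one left out (adjusted p up to 0.079 otherwise). Edn2, the ligand endothelin-2, read 6.38 to 6.60 at hCG-0h and 6.41 to 6.50 at hCG-6h and did not pass (adjusted p = 0.766). Ctsl, a lysosomal protease, did not pass on its brightest probe set (log2 change 0.03, adjusted p = 0.86), whereas its second probe set was higher by 1.03. Hif1a, Adamts1, Prkg2, Il6, Edn2 and Ctsl were named after their values were seen.

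**Figure D3:**
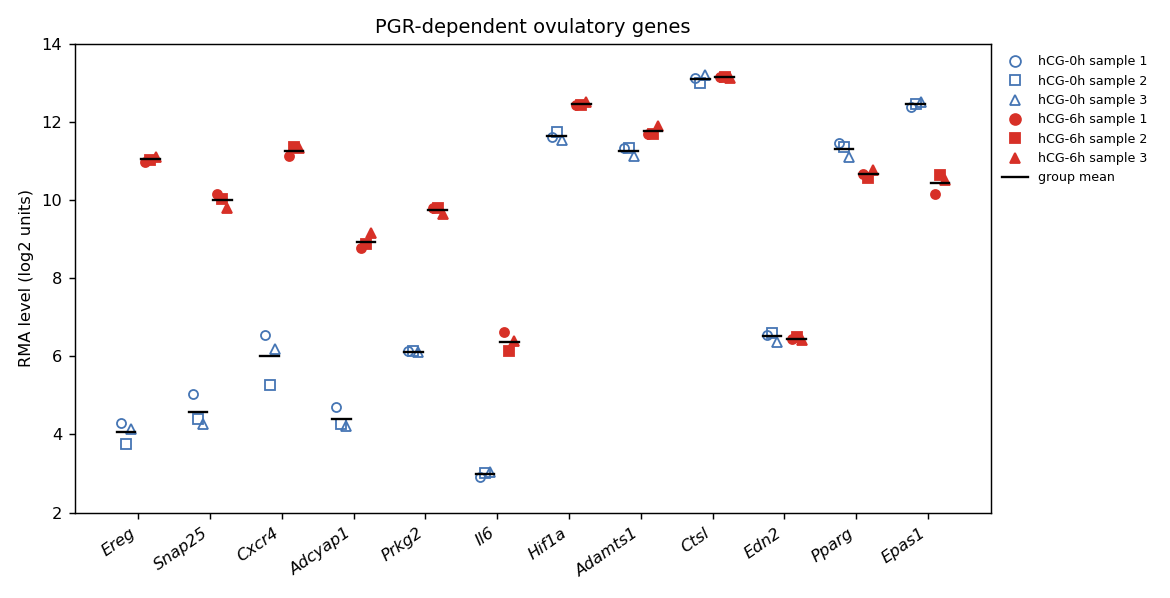
RMA level (log2 units, vertical axis) of the 12 measured PGR-dependent genes in each sample, ordered by their change; open blue symbols are hCG-0h samples, filled red symbols hCG-6h samples, black bars group means. The groups are apart in 10 genes, overlap in Ctsl and Edn2, and are inverted in Pparg and Epas1, whose hCG-6h values are the lower.

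Of 18 measured genes known to respond to glucocorticoids in other tissues 12 rose, 2 fell and 4 did not pass, with a median log2 change of 1.01. A part of the glucocorticoid receptor in these changes was not tested. Over all genes 10.8% were higher and 10.5% lower, with a median of 0.0067. Ddit4, an inhibitor of mTOR signalling, read 9.72, 9.16 and 7.68 at hCG-0h and 12.07, 12.03 and 11.97 at hCG-6h, and rose 9.0-fold (limma adjusted p = 0.00437). Dusp1, a MAP kinase phosphatase, read 9.40, 9.11 and 7.24 and then 11.52, 11.54 and 11.69, and rose 8.0-fold (adjusted p = 0.00843). In both genes hCG-0h sample 3 stood well below the other hCG-0h samples, and without it the log2 changes were 2.58 and 2.33 in place of 3.17 and 3.00. Angptl4, a secreted inhibitor of lipoprotein lipase, rose 5.98-fold (adjusted p = 2.9e-05).

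Pdk4, a kinase that holds back pyruvate oxidation, fell, 6.35-fold lower (adjusted p = 0.000117), as did the transcription factor gene Klf9, 1.73-fold lower (adjusted p = 0.00182), with 3 of its 7 probe sets passing. Tsc22d3, which encodes the glucocorticoid-induced leucine zipper, did not pass on any of its 4 probe sets (log2 change -0.24 on the brightest, adjusted p = 0.451). Per1, a clock gene, and Sgk1, a kinase, rose by 1.25 and 1.08 on the log2 scale (adjusted p = 0.0171 and 0.00231), Per1 not without hCG-6h sample 2 or 3 (adjusted p = 0.0508 and 0.0592). Tsc22d3, Per1 and Sgk1 were named after their values were seen. Without hCG-6h sample 2 or 3 the count of rising genes in the list was 7 in place of 12.

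Enzymes that make or inactivate the ligands changed on both sides. Of 9 measured genes of progesterone and corticoid synthesis and metabolism 4 rose and 1 fell, with a median log2 change of 0.49. The shares over all genes were 10.8% higher and 10.5% lower. Star, which brings cholesterol into mitochondria, read 7.16, 8.15 and 6.78 at hCG-0h and 10.29, 10.71 and 10.47 at hCG-6h, an 8.73-fold rise (limma adjusted p = 0.00109), and its 3 probe sets had log2 changes of 3.00 to 5.32. Fdx1, the electron donor of the side-chain cleavage enzyme, rose 2.54-fold (adjusted p = 0.000583). Cyp11a1, that enzyme, rose by 2.72 on the log2 scale from a dim mean of 5.82 on its brightest probe set (adjusted p = 0.000764). That was the only 1 of its 3 probe sets that passed. Hsd3b1, which completes progesterone synthesis, rose by 0.50 on the log2 scale (adjusted p = 0.0169). The Hsd3b1 call was lost without hCG-6h sample 2 or 3 (adjusted p = 0.0555 and 0.056), and this gene was named after its values were seen.

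Hsd11b2, the enzyme that inactivates glucocorticoids and so shields the mineralocorticoid receptor, was the gene that fell. It read 11.58, 11.66 and 11.62 at hCG-0h and 8.19, 7.98 and 7.74 at hCG-6h. The groups were 3.39 apart at their nearest, and the level was 12.6-fold lower (log2 change -3.65 ± 0.13, SE, limma adjusted p = 2.09e-05). Hsd11b1, which works in the opposite direction, was dim at 5.43 to 6.12 and 5.99 to 6.81 and did not pass (adjusted p = 0.319; named after its values were seen).

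Membrane receptors of the progestin and adipoQ family split in direction. Of 8 measured genes of membrane progesterone receptors and partners 2 rose and 4 fell, with a median log2 change of -0.30. The shares over all genes were 10.8% higher and 10.5% lower. Paqr6, a membrane progestin receptor, read 7.72, 8.50 and 8.17 at hCG-0h and 5.51, 5.60 and 5.45 at hCG-6h. It fell by 2.61 on the log2 scale (limma adjusted p = 0.000237), to a dim mean of 5.52, so no fold is given. Paqr9, of the same family, rose 2.79-fold (adjusted p = 0.00204). Paqr8 fell by 0.88 on the log2 scale with all 4 of its probe sets passing (adjusted p = 0.0208), and Nenf, a relative of the Pgrmc genes, fell by 0.68 (adjusted p = 0.025). Paqr7 rose by 0.55 and Paqr5 fell by 0.45 (adjusted p = 0.0294 and 0.0253), although only 1 of 4 Paqr5 probe sets passed and their mean was slightly above 0. Paqr5 was named after its values were seen.

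The smaller of these changes rested on all 6 samples. Leaving out 1 sample at a time, 2 to 4 genes of this list were called in place of 6. Paqr8 was lost without samples 2 or 3 of hCG-0h and sample 3 of hCG-6h (adjusted p up to 0.0681), and Nenf without samples 1 or 2 of hCG-0h and samples 2 or 3 of hCG-6h (up to 0.0738). Paqr7 was kept only without hCG-0h sample 1 (otherwise up to 0.091), and Paqr5 only without hCG-0h sample 2 (otherwise up to 0.078).

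**Figure D4:**
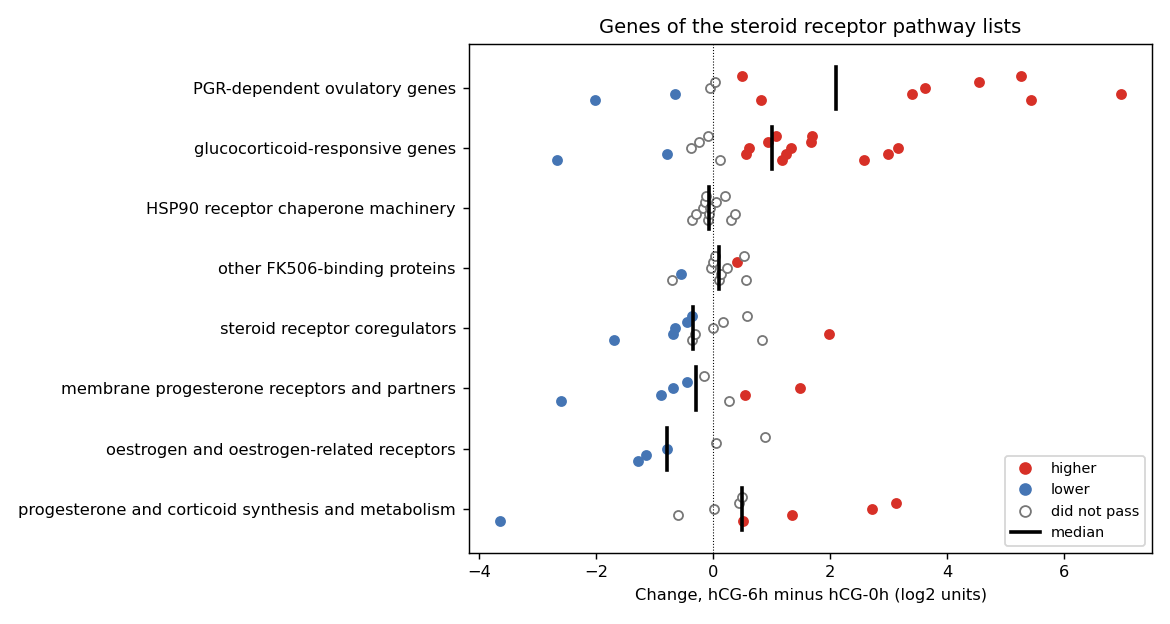
Change from hCG-0h to hCG-6h (log2 units, horizontal axis) of each measured gene in 8 pathway lists (vertical axis; height within a row only separates points); red marks genes that were higher, blue lower, open grey circles those that did not pass, and black bars the list median. The PGR-dependent list has its median at 2.11, the chaperone machinery sits between -0.37 and 0.37, and Hsd11b2, at -3.65, is the lowest point.

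Of 12 measured coregulator genes of steroid receptors 1 rose and 5 fell, with a median log2 change of -0.34. Among all genes 10.8% were higher and 10.5% lower. Nrip1, the corepressor RIP140, which is needed for ovulation, read 11.44, 11.90 and 12.10 at hCG-0h and 10.36, 10.01 and 9.99 at hCG-6h, and fell on all 6 of its probe sets (3.23-fold lower on the brightest, limma adjusted p = 0.00148). The gene that rose was Cited4, a relative of Cited2, at 3.97-fold (adjusted p = 0.0002). Ncoa2, a coactivator, and Pias1, a SUMO ligase, fell by 0.69 and 0.65 on the log2 scale (adjusted p = 0.0434 and 0.0396). In the test over all probe sets 0 of 4 Ncoa2 probe sets and 1 of 4 Pias1 probe sets passed. The split of 5 lower against 1 higher was not kept with fewer samples: it was 1 against 1 without hCG-0h sample 2 or 3, 2 against 2 without hCG-6h sample 1, 2 against 1 without hCG-6h sample 2 or 3, and 3 against 1 without hCG-0h sample 1. It was 2 against 1 with the mean of probe sets. Ncoa2 was called only without hCG-0h sample 1 or hCG-6h sample 3 (adjusted p up to 0.124 otherwise) and Pias1 only without hCG-6h sample 1 (up to 0.119 otherwise).

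Genes of oestrogen receptors and oestrogen-related receptors, of the same wider receptor family, were lower where called. Of 5 measured genes of this oestrogen receptor list 3 fell and none rose, with a median log2 change of -0.78. Among all genes 10.5% were lower and 10.8% higher. Esr2, the main oestrogen receptor of granulosa cells, read 10.08, 9.76 and 9.75 at hCG-0h and 9.06, 9.12 and 9.06 at hCG-6h, 1.72-fold lower (limma adjusted p = 0.00514). Esr1 was 2.42-fold lower (adjusted p = 0.0212) with all 3 of its probe sets passing. Esrrg, which encodes an oestrogen-related receptor, fell by 1.14 on the log2 scale from a dim level (adjusted p = 0.00595). The Esr1 call was lost without sample 1 of hCG-0h, sample 2 of hCG-0h or sample 2 of hCG-6h (adjusted p = 0.072, 0.0651 and 0.0526).

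The genes whose pattern over the 6 samples lay nearest to that of Pgr were Pde4b, Cd44, Tgfb1, Slc22a22 and Aard. Nearness was the root mean square difference between log2 values, each gene centred on its own mean over the 6 samples. Each gene was read on its brightest probe set only, for Pgr 1439527_at. The second Pgr probe set (1421444_at) had another order of samples within both groups, and nearness to it was not measured. Pde4b, a cyclic AMP phosphodiesterase, differed from Pgr probe set 1439527_at by 0.115 log2 units. It read 5.03, 3.95 and 4.22 at hCG-0h and 7.61, 7.97 and 8.46 at hCG-6h. The other 4, among them the hyaluronan receptor Cd44 and the growth factor gene Tgfb1, differed by 0.330 to 0.371. Of the 6 probe sets of Pde4b 3 passed.

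Markers fixed for other cell types were read in the same arrays. The summed level of 8 cumulus and granulosa markers was 15.10 to 15.17 (log2) at hCG-0h and 14.71 to 14.81 at hCG-6h, with Slc38a3, Fshr, Nr5a2 and Fst falling and the other 4 not passing. Inha and Inhba, inhibin subunits of these cells, averaged 13.46 and 13.04 at hCG-0h and 13.39 and 13.16 at hCG-6h, so markers of the labelled cells were present in both groups. The summed level of 9 oocyte markers was 8.50 to 8.97 (log2) at hCG-0h and 9.51 to 9.72 at hCG-6h, with Ooep rising and the other 8 not passing, and with the means of Zp1, Zp2, Zp3 and Bmp15 under 5 in both groups. The sum of 5 endothelial markers was 7.35 to 8.23 and then 8.39 to 9.10, with 0 passing in limma and 2 at an unadjusted p under 0.05. The sums of 7 leukocyte markers (8.50 to 8.86 and 8.82 to 8.93) and 5 theca and stroma markers (7.93 to 8.25 and 8.16 to 8.38) overlapped between groups. Of the leukocyte markers Cd52 rose, and of 2 red blood cell markers Alas2 fell. The marker genes were named after their values were seen. The part of other cells in the members' changes was not tested, and in bulk samples a change in the number of cells of a type and in RNA per cell cannot be told apart.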

How the data were processed

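Total RNA of 6 samples was amplified, labelled with biotin and hybridised to single-colour arrays, per the labels' protocols. Deposited were log2 RMA values of 45101 probe sets, made by the authors with GCOS, Affymetrix Expression Console 1.1 and RMA per the submitters' processing notes. RMA corrects background, makes the arrays' distributions equal by quantiles and combines the probes of a set, so dim differences are compressed and the median change is held near 0. Array medians lay between 6.43 and 6.46, and the number of arrays limits precision. No detection calls were used. Genes were named from the platform annotation, using 34958 probe sets with 1 symbol (932 had several, 9211 were not listed), and the brightest probe set by mean stood for each of 18194 genes. All 9 members matched the reference gene table by Entrez identifier and symbol, and 87 of 98 genes in 8 pathway lists were measured.

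The groups were compared with limma 3.58.1 in R 4.3.3 (lmFit, eBayes, group as the only term, two-sided, Benjamini-Hochberg over all genes or all probe sets, threshold 0.05). Folds are 2 to the power of the log2 change. Lists are described by counts and medians without a test. Named genes are the members, up to 4 called genes of each list with the largest changes, called genes against a list's majority, and the 5 nearest to Pgr. Any other gene named was chosen after its values were seen. The members and lists were chosen with earlier results of these data known. Scripts were tested on simulated data. Promoter windows are RefSeq's, and 7 of the 9 members had one that could be searched here.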

Additional observations from a re-analysis of the deposited data

How the results depend on the processing

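Over 55 named genes and 14 other settings, 672 of 766 alternative values kept their direction and their side of the threshold, 84 lost the call, 5 gained one and 5 reversed; over the 24 member probe sets 269 of 307 were kept, 30 lost, 4 gained and 4 reversed. The reversals, none of a value that had passed except Paqr5, were Nr3c2 (-0.15 in both fits), Zbtb16 (-0.20 in both fits) and Nr3c1 probe set 1453860_s_at (-0.28) with hCG-6h sample 1 alone, Tsc22d3 (0.0933) and Paqr5 (0.0867) with the mean of probe sets, Ctsl (-0.0167) without hCG-0h sample 2 (range -0.0167 to 0.0783 with 1 sample left out) and Fkbp4 probe set 1416363_at (0.157) without hCG-6h sample 2 (range -0.388 to 0.157); the cause was not tested. Pgr passed under all 14 settings (log2 change 2.60 to 3.98).

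With hCG-6h sample 1 alone, assumed to vary as the hCG-0h samples do, 1577 genes (810 higher, 767 lower) and 2252 probe sets were called, 1 member higher and 0 lower, 3 member probe sets higher and 1 lower, and 4 glucocorticoid-responsive, 0 FK506-binding, 1 coregulator, 2 membrane receptor and 1 oestrogen receptor genes. With the mean of probe sets 4 members were higher, and 1 chaperone, 1 FK506-binding and 3 coregulator genes were called. A trend and robust variance called 2 chaperone genes, and a second quantile normalisation 1 FK506-binding gene. Sample numbers did not pair the samples (correlations of same-numbered deviations 0.0113, -0.0157 and 0.0286); the replicate block called 3264 genes in place of 3874, 0 members and 0 member probe sets lower, 1 FK506-binding and 3 coregulator genes, and Fkbp5 had an adjusted p of 0.0713 there.

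Leaving out each sample in turn gave 2920 to 3211 genes (1476 to 1606 higher, 1402 to 1605 lower), 4737 to 5304 probe sets, 2 to 3 members higher and 0 to 1 lower, 5 to 6 member probe sets higher and 0 to 2 lower. The lists then held 9 to 13 called glucocorticoid-responsive, 1 to 3 FK506-binding, 2 to 4 coregulator, 2 to 4 membrane receptor and 2 to 3 oestrogen receptor genes. Fewer samples were fitted in these settings. Dim probe sets, among them those of Nr3c2 and the third Pgr probe set, limit what can be said of their changes.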
